A study of Rattus norvegicus with 62 samples.

Results

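The renin-angiotensin system genes Agt, Ace, Agtr1a, Agtr1b, Agtr2, Atp6ap2, Lnpep and Mas1 were followed through nerve injury in rat sensory ganglia. They are 8 of the 40982 genes counted, and all 8 passed the filter on low counts in both count tables. They were taken from the count tables by symbol and were selected on 1 measured value: Agt was among the largest decreases at 5 weeks. Of the genes with a symbol that were lower in every pair of libraries, with an adjusted p under 0.05 and a mean log2 CPM of at least 1, Agt had rank 7 of 2775 by fold change in males at 5 weeks and rank 9 of 2466 in females at 5 weeks. The threshold in this ranking belongs to the choice and is no test of Agt. The Agt values at 5 weeks are therefore given as a description with no test. The choice named no value of the other 7 genes and none at 24 h or 1 week.

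Poly-A RNA was counted per gene in 62 libraries of the dorsal root ganglion, the cluster of sensory nerve cell bodies beside the spinal cord, at lumbar level L4. Every rat had a chronic constriction injury, in which ligatures around the sciatic nerve are used as a model of neuropathic pain. The side of the injury (ipsilateral) was set against the uninjured side of operated rats (contralateral). Males gave 6 libraries per side at 24 h, 7 at 1 week and 5 at 5 weeks. Females gave 7 per side at 1 week and 6 at 5 weeks. The contralateral ganglia therefore share the operation, and groups without an operation were not used here. The labels give neither strain nor age. Males at 1 and 5 weeks form one count table (24 libraries of 18.9 to 33.5 M counts) and all others a second one (38 libraries of 16.9 to 26.6 M counts). Sex and count table therefore cannot be told apart at 1 and 5 weeks. The labelled tissue was borne out by its markers: the nociceptor sodium channel gene Scn10a had at least 278 CPM (the normalised read count, scaled to library size) in each library and the satellite glia potassium channel gene Kcnj10 at least 142 CPM.

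The renin-angiotensin system is a peptide hormone cascade. Angiotensinogen, encoded by Agt, is first cut to angiotensin I, which angiotensin-converting enzyme (Ace) trims to angiotensin II. Angiotensin II acts on the type 1 receptors, which rodents carry as a pair of genes (Agtr1a and Agtr1b), and on the type 2 receptor (Agtr2). Shorter peptides act on Mas1, the receptor of angiotensin-(1-7), and on the aminopeptidase encoded by Lnpep, which binds angiotensin IV. Atp6ap2 encodes the (pro)renin receptor, which is also an accessory subunit of the vacuolar proton pump. The type 2 receptor has been studied as a target of pain drugs.

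The 8 genes spanned a wide range of levels. Per length of exon, the mean over all libraries was 102 CPM per kb for Atp6ap2, 11.96 for Lnpep, 3.58 for Ace, 1.86 for Agt, 1.28 for Agtr1a, 0.320 for Agtr1b, 0.171 for Agtr2 and 0.0935 for Mas1. The (pro)renin receptor and the aminopeptidase were thus the abundant members, and Agtr1b, Agtr2 and Mas1 rested on at most 33, 49 and 20 counts in a library. In mRatBN7.2, the build of the count tables, Agt lies on the minus strand of chromosome 19 (52529139 to 52549618), Ace on the plus strand of chromosome 10 (90910316 to 90930437) and Agtr1a on the minus strand of chromosome 17 (34173446 to 34226892). Agtr1b is on the minus strand of chromosome 2 (102844969 to 102920232), Agtr2 on the plus strand of chromosome X (112119673 to 112124060) and Atp6ap2 on the minus strand of chromosome X (10183983 to 10210948). Lnpep is on the minus strand of chromosome 1 (58258642 to 58355532) and Mas1 on the plus strand of the same chromosome (47879956 to 47911500).

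The 100 bases before the start site in RefSeq (build GRCr8) are shown for 5 members, to set the promoters of the type 1 receptor pair and of the scarce type 2 receptor beside those of the 2 abundant genes. Of the 8 members, 7 matched an entry of that promoter set, and Agt has none there. Capitals mark TATAAA (the TATA box letters) or CCAAT, each searched on both strands, so that ATTGG is CCAAT on the other strand. Only these exact letters were searched, and close variants, such as tatataa in the Agtr2 stretch, are not marked.
Agtr1a (chr17:34435433-34435532, minus strand): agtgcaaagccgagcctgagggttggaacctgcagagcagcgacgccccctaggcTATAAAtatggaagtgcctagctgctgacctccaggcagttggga
Agtr1b (chr2:104849263-104849362, minus strand): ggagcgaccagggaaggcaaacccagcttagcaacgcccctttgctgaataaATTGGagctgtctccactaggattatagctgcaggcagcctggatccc
Agtr2 (chrX:116914220-116914319, plus strand): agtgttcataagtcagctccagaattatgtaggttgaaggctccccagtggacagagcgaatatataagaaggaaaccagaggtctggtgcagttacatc
Lnpep (chr1:67027611-67027710, minus strand): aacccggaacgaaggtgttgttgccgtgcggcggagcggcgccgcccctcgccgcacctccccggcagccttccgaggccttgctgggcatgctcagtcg
Atp6ap2 (chrX:12883671-12883770, minus strand): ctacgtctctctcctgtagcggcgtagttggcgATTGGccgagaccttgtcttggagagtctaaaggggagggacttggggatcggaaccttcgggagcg

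These promoters differed in base composition. Over the 250 bases before the start, the abundant Lnpep had 71.6% G+C and 29 CpG dinucleotides and Atp6ap2 had 58.8% and 18, against medians of 51.2% and 5 over all 33469 promoters of the set. Ace, at a lower level, had 69.2% and 23. Among the receptor genes Agtr1a had 60.8% G+C and 9 CpG, Agtr1b had 52.8% and 3, Mas1 had 53.2% and 3, and Agtr2 had 38% and 2. TATAAA was found in Agtr1a, at position -45 from the start, and on the other strand in Ace, at position -42. CCAAT was found on the other strand in Agtr1b (-163 and -48), Agtr2 (-168) and Atp6ap2 (-160 and -67). Atp6ap2 also held it on its own strand, at -122. Those further than 100 bases from the start lie outside the stretches shown. Of all promoters in the set, 12.9% hold TATAAA and 34.0% hold CCAAT in a window of 250 bases.

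At 1 week, ipsilateral ganglia of both sexes had less Agt and Lnpep and slightly more Atp6ap2 RNA, while the receptors for angiotensin II and angiotensin-(1-7) mostly did not pass the test between sides. All adjusted p-values below are from edgeR's quasi-likelihood test with Benjamini-Hochberg adjustment over all genes tested, called where under 0.05, and log2 fold changes are ipsilateral over contralateral with their standard error (SE). In males at 24 h, 0 of 8 members were called, where 14.1% of all genes tested were called (8.23% higher and 5.9% lower), and Atp6ap2, Lnpep and Mas1 had an unadjusted p under 0.05 (0.0324, 0.0382 and 0.0412). In males at 1 week 2 members rose (Atp6ap2 and Ace) and 2 fell (Agt and Lnpep), a share close to the 47% called of all genes (23.6% higher and 23.4% lower). In females at 1 week 1 rose (Atp6ap2) and 3 fell (Agt, Lnpep and Mas1), against 45.7% of all genes (23.9% higher and 21.8% lower). At 5 weeks, leaving Agt aside, 1 of 7 members was called in males (Lnpep lower), where 34.7% of all genes were (16% higher and 18.7% lower), and 3 of 7 in females (Ace and Agtr1a higher, Lnpep lower), where 42% were (22.9% higher and 19.1% lower). The median log2 fold change of the 8 members was -0.04 at 24 h and -0.12 and -0.40 at 1 week in males and females. Without Agt, the median of the 7 others was -0.07 at 24 h, 0.00 and -0.35 at 1 week and -0.26 and 0.05 at 5 weeks. The medians of all genes lay between -0.01 and 0.01.

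**Figure D1:**
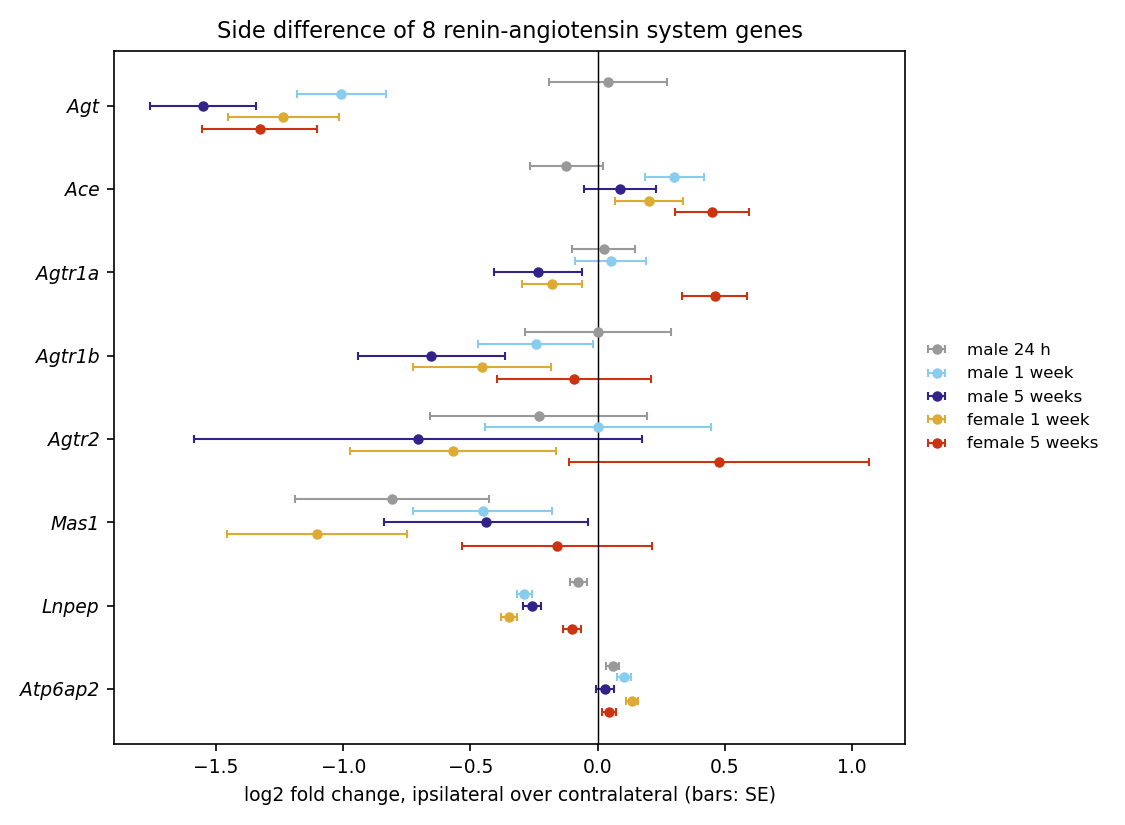
Log2 fold change (ipsilateral over contralateral, x axis) of the 8 genes in the 5 comparisons of sides, with bars of 1 SE. Agt lies near -1 or below in 4 comparisons and at 0.04 in males at 24 h. Its values at 5 weeks were used to choose the genes. Lnpep and Atp6ap2 have small changes with short bars.

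Agt, the precursor of all angiotensin peptides, fell at 1 week in both sexes. In males at 24 h its contralateral levels ran from 3.51 to 5.46 CPM (median 4.27) and its ipsilateral levels from 3.06 to 7.42 CPM (median 4.10). The groups overlapped, with a log2 fold change of 0.04 (SE 0.232, 95% interval -0.43 to 0.51, adjusted p = 0.94). In males at 1 week the contralateral libraries held 3.65 to 6.04 CPM (median 4.89) and the ipsilateral ones 1.52 to 3.10 CPM (median 2.503). Each ipsilateral library was below each contralateral one, and Agt fell by 1.01 on the log2 scale (SE 0.174, adjusted p = 3.63e-05, lower in 7 of 7 pairs). In females at 1 week the levels were 4.45 to 8.37 CPM (median 5.38) against 1.36 to 4.17 CPM (median 2.27). The groups again did not overlap, and Agt fell by 1.24 on the log2 scale (SE 0.219, adjusted p = 1.41e-05, lower in 7 of 7 pairs). In whole ganglia, fewer cells of a type and less RNA per cell cannot be told apart.

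**Figure D2:**
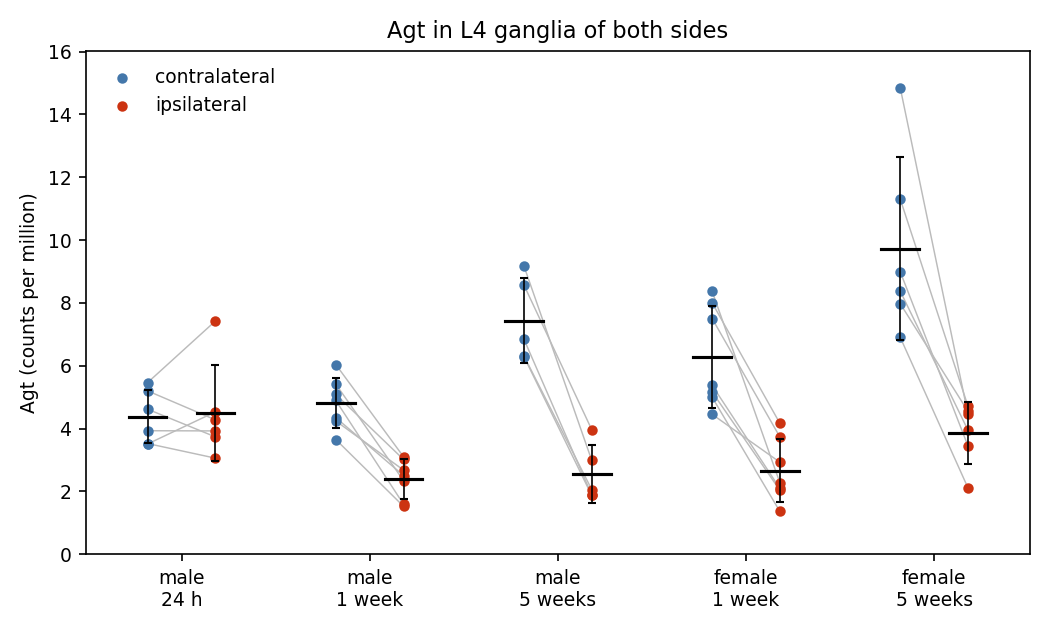
Agt level (CPM, y axis) in each library of 5 comparisons, contralateral in blue and ipsilateral in red, with grey lines joining libraries of the same replicate number and black marks for the mean and SD. The sides overlap in males at 24 h and are separate in the other 4 comparisons. The values at 5 weeks were used to choose the genes.

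At 5 weeks, the values that chose the genes, the 5 contralateral male libraries held 8.57, 6.84, 6.31, 6.29 and 9.17 CPM of Agt, and the 5 ipsilateral ones 3.97, 1.89, 2.06, 1.87 and 2.99 CPM in the same order. Female contralateral libraries ranged from 6.90 to 14.8 CPM (median 8.68) and ipsilateral ones from 2.11 to 4.71 CPM (median 4.195). Neither sex had overlapping groups, and the log2 fold change was -1.55 (SE 0.208) for the male ganglia and -1.33 (SE 0.228) for the female ones. The ipsilateral mean was 49.7% and 42.4% of the contralateral mean at 1 week in males and females, and 34.4% and 39.7% at 5 weeks.

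Between the weeks, the contralateral mean of Agt differed more than the ipsilateral mean in males. It averaged 4.81 CPM (SD 0.800, n = 7) at 1 week and 7.44 CPM (SD 1.34, n = 5) at 5 weeks in males, and 6.27 (SD 1.63, n = 7) and 9.73 CPM (SD 2.90, n = 6) in females. Both are a log2 difference of 0.63. Ipsilateral Agt averaged 2.39 and 2.56 CPM in males (log2 difference 0.09) and 2.66 and 3.86 CPM in females (0.54). Set against the contralateral libraries of 1 week, the 5 week fold changes were -0.92 in males and -0.70 in females. In the order of male means at 1 and 5 weeks, the ipsilateral groups of both weeks differed by less than the larger of their SDs, and the contralateral groups stood apart from each other and from these. In the second table, contralateral female libraries at 5 weeks led, followed by those at 1 week and then by both male groups of 24 h, ipsilateral females of 5 weeks and ipsilateral females of 1 week. Among these, each 24 h group differed from the next in order by less than the larger SD, and the other neighbours differed by more.

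The Agt side difference was not the same at 24 h and 1 week. The male side difference at 1 week minus that at 24 h was -1.05 (SE 0.300, adjusted p = 0.00704), in a fit across both tables in which the 2 times also differ by table. Agt and Lnpep were called in this contrast, 2 of 8 members where 23% of all genes were. At 1 week the female minus the male side difference of Agt was -0.24 (SE 0.291, 95% interval -0.82 to 0.34, adjusted p = 0.849). In this contrast 0 of 8 members were called and 1.11% of all genes, with no member at an unadjusted p under 0.05.

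Cell markers and library properties beside Agt were as follows. The summed level of 10 satellite glia markers overlapped between sides in each comparison, at 3589 to 4089 CPM contralateral and 3479 to 4489 CPM ipsilateral in males at 1 week, and 3281 to 4019 against 3169 to 3967 CPM in females at 1 week. Of these markers 2 rose and 4 fell in males at 1 week, and 1 rose and 2 fell in females. In males at 1 week Kcnj10 changed by -0.35 and the lipid carrier gene Fabp7 by -0.40 on the log2 scale, and Glul, glutamine synthetase, by 0.15. The summed level of 9 macrophage markers was 96.8 to 173 CPM contralateral and 259 to 459 CPM ipsilateral in females at 1 week, and 111 to 248 and 258 to 743 CPM in males, with 7 of 9 called higher in each. The share of counts in ribosomal RNA genes did not overlap between sides in females at 1 week (1.69% to 2.76% contralateral, 0.692% to 1.42% ipsilateral). With that share as a covariate the female Agt difference was -1.35 (adjusted p = 0.00947). The part of these cells in the Agt difference was not tested.

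Agt lies across from 2 genes of the plus strand, and the sources used here do not give the strand setting of the counting. Cog2, a Golgi complex subunit gene with a mean of 43.2 CPM, had log2 fold changes of 0.04 in males and 0.17 in females at 1 week (adjusted p = 0.301 and 7.73e-04), and of -0.06 and -0.10 at 5 weeks. The part of opposite-strand reads in the Agt values was not tested. Capn9, a calpain gene, averaged 0.0832 CPM and was not tested. After group means were removed, the genes whose log2 CPM followed Agt most closely over the 62 libraries included Tst, a mitochondrial sulfurtransferase (Pearson r = 0.60), P2rx6, a subunit of ATP-gated channels (0.59), Lipe, hormone-sensitive lipase (0.56), and Spns2, a sphingosine-1-phosphate transporter (0.55). These libraries share depth and composition, and the r values are a description. The median r of Agt was 0.23 with the satellite glia markers and 0.31 with the endothelial ones. Of 10 endothelial markers 0 rose and 1 fell at 1 week in each sex, and their part in the Agt difference was not tested.

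Regulators known to act on the Agt gene in other tissues were a list of 13, of which 12 were tested. In males at 24 h 4 rose and 1 fell. At 1 week 7 rose and 4 fell in males and 5 rose and 5 fell in females. At 5 weeks 5 rose and 3 fell in each sex. The share of all genes called was 14.1% at 24 h, 47% and 45.7% at 1 week and 34.7% and 42% at 5 weeks (males first). The acute phase factor gene Cebpd rose in all 5 comparisons, by 1.37 at 24 h, 1.26 and 0.95 at 1 week and 0.75 and 0.91 at 5 weeks (males first). Cebpa, of the same family, had a log2 fold change of -0.21 at 24 h (adjusted p = 0.494) and rose by 0.97 and 0.72 at 1 week and by 0.55 and 1.02 at 5 weeks. Nr3c2, the mineralocorticoid receptor gene through which aldosterone acts, changed by -0.41 and -0.59 at 1 week and by -0.45 and -0.29 at 5 weeks. The median of the list was between -0.06 and 0.23, beside -0.01 to 0.01 for all genes.

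The peptidases of angiotensin formation and breakdown were called both higher and lower at 1 and 5 weeks. Of 16 listed, 15 were tested at 24 h and in females and 16 in males at 1 and 5 weeks. At 24 h 0 rose and 1 fell (Cpa3, a mast cell carboxypeptidase), and 9 rose and 4 fell in males and 4 rose and 4 fell in females at 1 week. At 5 weeks 3 rose and 4 fell in males and 5 rose and 3 fell in females. Of all genes tested, 14.1% were called at 24 h, 47% and 45.7% at 1 week, and 34.7% and 42% at 5 weeks (males first). Enpep, the aminopeptidase A that turns angiotensin II into angiotensin III, changed by -0.29 and -0.77 on the log2 scale at 1 week and by -0.75 and -0.53 at 5 weeks. Nln, the oligopeptidase neurolysin, rose by 0.59 and 0.61 at 1 week and by 0.55 and 0.61 at 5 weeks, with groups that did not overlap in these 4 comparisons. Ctsg, the neutrophil protease cathepsin G, rose in males at 1 week (by 1.79, adjusted p = 0.0386) and had values from -1.79 to -0.15 elsewhere that did not pass the test. Those male 1 week libraries held 1 to 35 counts contralateral and 15 to 72 ipsilateral, with overlap. In that comparison 7 of 7 erythrocyte markers also rose, and the part of blood in the Ctsg difference was not tested. Cpa3 was named after its values were seen. The median of the list was -0.02 at 24 h, 0.22 and -0.14 at 1 week, and -0.18 and 0.20 at 5 weeks. Medians of all genes lay between -0.01 and 0.01.

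**Figure D3:**
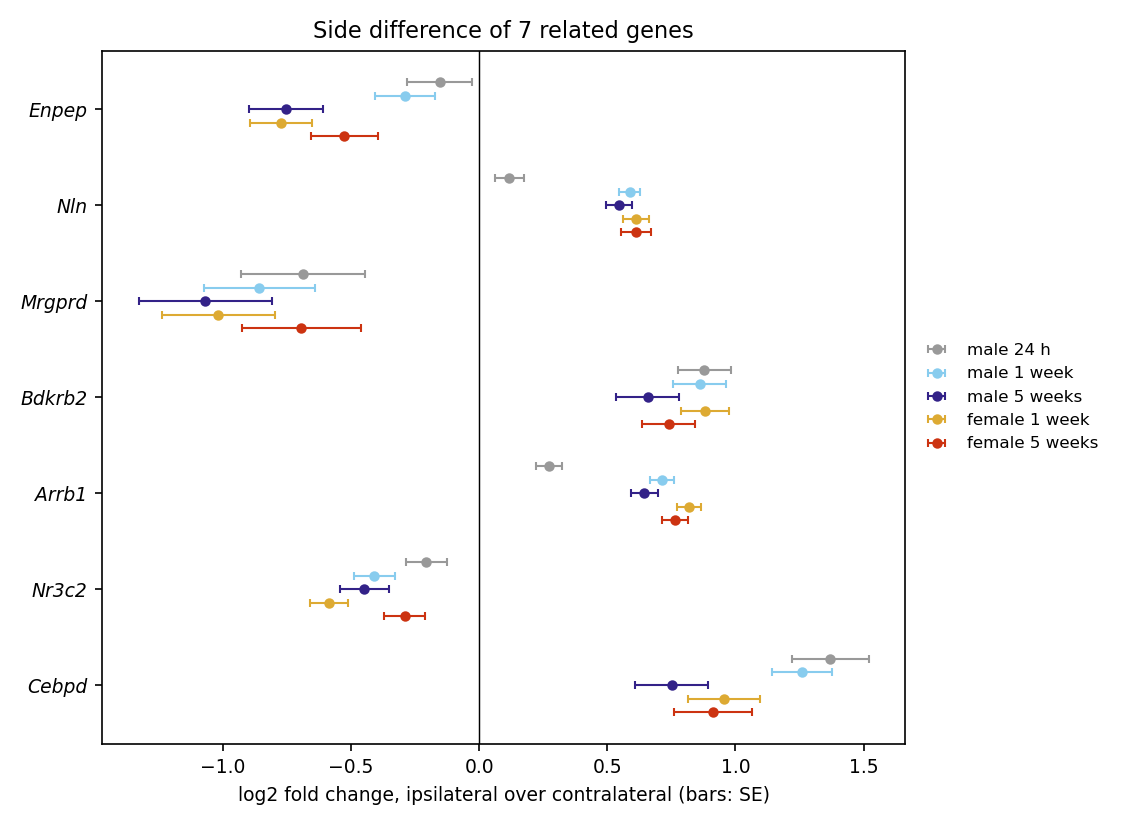
Log2 fold change (ipsilateral over contralateral, x axis) of 7 genes related to the renin-angiotensin system in the 5 comparisons of sides, with bars of 1 SE. Bdkrb2, Arrb1 and Cebpd are above 0 in all 5, and Nln is above 0.5 in all but males at 24 h.

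Ace, the converting enzyme, known from vessel walls, was modestly higher in ipsilateral ganglia in 2 comparisons. In males at 1 week it ran from 9.77 to 16.9 CPM contralateral (median 14.2) and from 14.2 to 18.8 CPM ipsilateral (median 17.3). It rose by 0.30 (SE 0.117, adjusted p = 0.0373, higher in 7 of 7 pairs), and leaving out single libraries lost the call for contralateral replicates 2, 6 and 7 and ipsilateral replicates 1, 3, 4 and 5 (adjusted p up to 0.0832). In females at 5 weeks it ran from 8.44 to 12.7 CPM (median 10.6) and from 10.5 to 16.9 CPM (median 14.6), and rose by 0.45 (SE 0.147, adjusted p = 0.0131, higher in 6 of 6 pairs), in the comparison where endothelial and pericyte markers also rose (given below with Agtr1a). With the contralateral group of the opposite week as reference these became 0.03 (adjusted p = 0.876) and 0.18 (adjusted p = 0.331), while males at 5 weeks and females at 1 week were then called, at 0.36 (adjusted p = 0.0246) and 0.47 (adjusted p = 0.00608). The remaining comparisons were -0.12 (95% interval -0.41 to 0.17) in males at 24 h, 0.09 (-0.20 to 0.38) in males at 5 weeks and 0.20 (-0.07 to 0.47) in females at 1 week. The male 1 week minus 24 h side difference of Ace was 0.43 (adjusted p = 0.099), and 0.43 with an adjusted p of 0.0148 with the replicate number as a block. Without ipsilateral 24 h replicate 3 it was 0.54 (adjusted p = 0.0295). The genes closest to Ace included the membrane trafficking gene Ehd4 (r = 0.73) and the endothelial adhesion gene Esam (0.68). Ace had a median r of 0.35 with endothelial, 0.38 with pericyte and smooth muscle and 0.37 with Schwann cell markers. In males at 1 week 0 of 10 endothelial markers rose and 1 fell, and 0 of 10 pericyte and smooth muscle markers rose or fell. The part of these cells in the Ace difference was not tested.

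**Figure D4:**
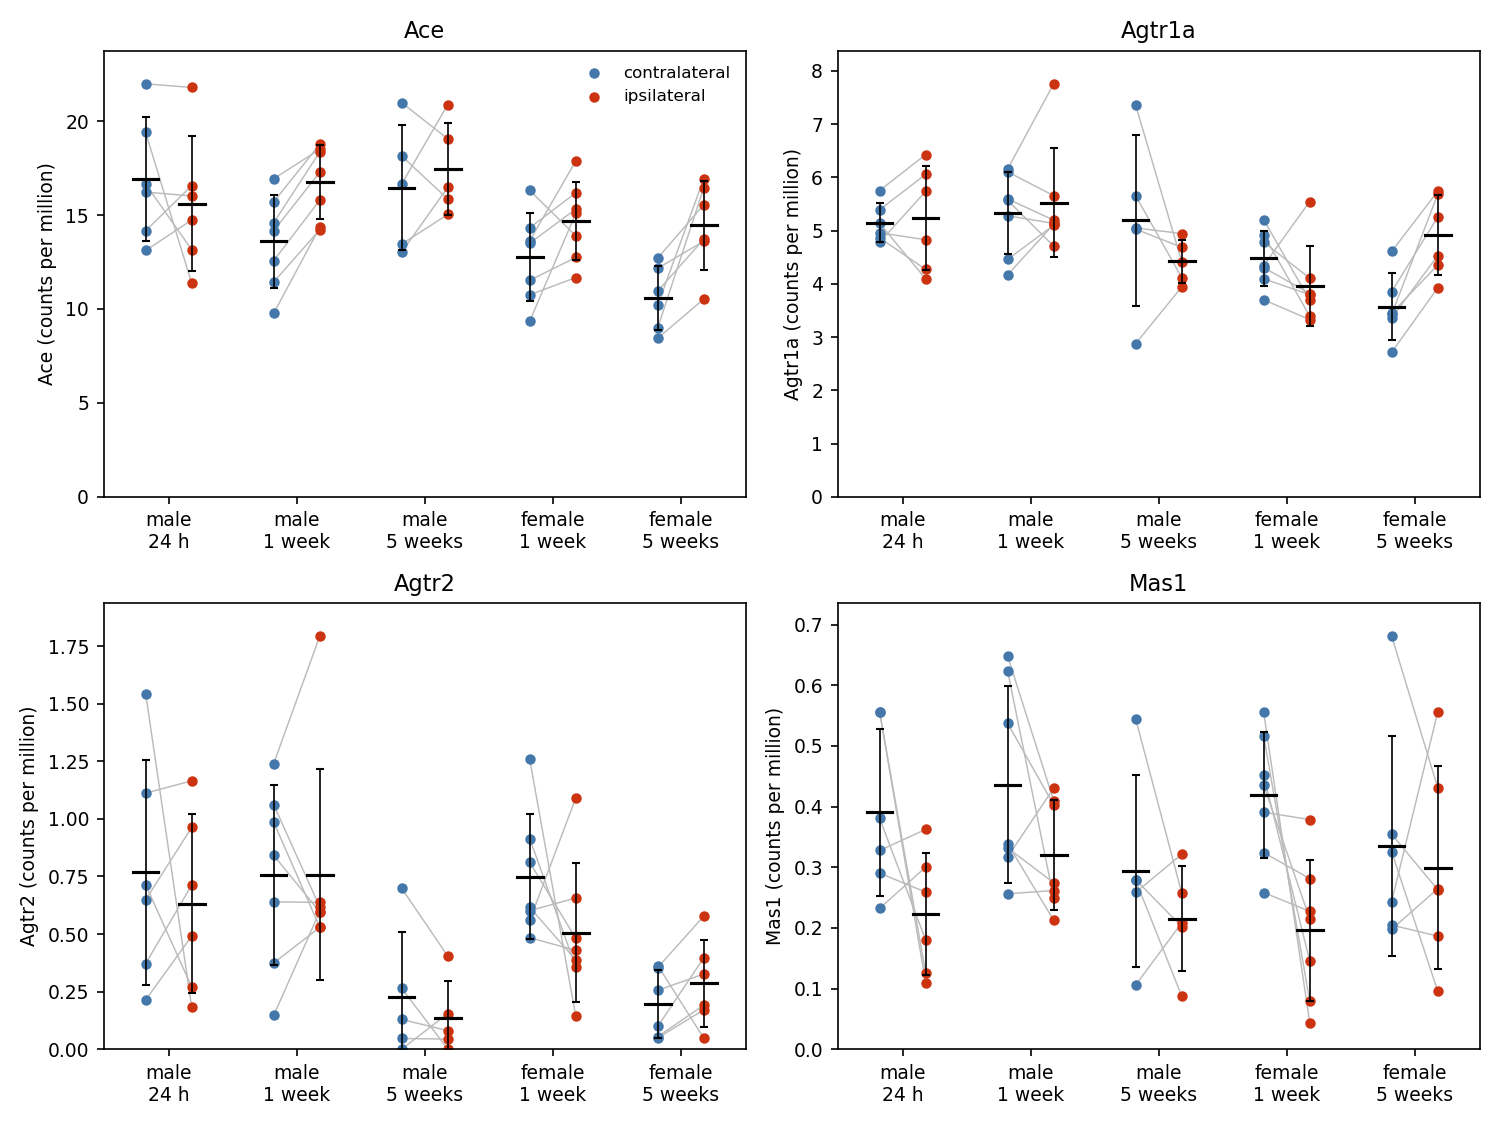
Levels (CPM, y axes from 0) of Ace, Agtr1a, Agtr2 and Mas1 in each library, contralateral in blue and ipsilateral in red, with grey lines joining libraries of the same replicate number and black marks for the mean and SD (bars end at 0). Agtr1a is higher on the ipsilateral side of each pair in females at 5 weeks, and the mean of Agtr2 is lower at 5 weeks than at 1 week on both sides of both sexes.

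Agtr1a, the main type 1 receptor gene of rodents, was called between sides in females at 5 weeks. The contralateral libraries held 2.72 to 4.61 CPM (median 3.44) and the ipsilateral ones 3.93 to 5.74 CPM (median 4.90). The groups overlapped slightly, each pair was higher on the ipsilateral side (6 of 6), and Agtr1a rose by 0.46 (SE 0.128, adjusted p = 0.00366). At 1 week 6 of 7 female pairs were lower ipsilaterally, with a log2 fold change of -0.18 (95% interval -0.42 to 0.06, adjusted p = 0.216). That value was -0.28 (adjusted p = 0.0427) without ipsilateral replicate 5, and 0.15 (adjusted p = 0.338) against the contralateral libraries of 5 weeks. The female difference between weeks was 0.64 (SE 0.174, adjusted p = 0.00971). In that contrast 2 of 7 members were called (Agtr1a and Lnpep), Agt left aside, where 13.5% of all genes were. Against the contralateral libraries of 1 week the 5 week difference was 0.13 (adjusted p = 0.421).

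Male ganglia had Agtr1a log2 fold changes of 0.03 at 24 h (95% interval -0.23 to 0.28), 0.05 at 1 week (-0.24 to 0.34) and -0.23 at 5 weeks (-0.59 to 0.12). The 5 contralateral libraries of the last group held 5.05, 7.36, 2.88, 5.66 and 5.03 CPM and the ipsilateral ones 4.95, 4.42, 3.94, 4.12 and 4.69 CPM. Replicate 3 was the only pair with the ipsilateral side higher, and without its contralateral library Agtr1a had -0.39 (adjusted p = 0.0448). The female minus the male side difference at 5 weeks was 0.66 (SE 0.211, adjusted p = 0.0934). It reached an adjusted p of 0.0309 with the replicate number as a block, 0.0080 (difference 0.83) without contralateral male replicate 3 and 0.0431 without contralateral female replicate 4. In that contrast 0 of 7 members were called, Agt left aside, and 2.11% of all genes, with Agtr1a and Lnpep at unadjusted p-values of 0.00271 and 0.0158.

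Fibroblast and mural cell markers were also higher in the comparison where Agtr1a was called. In females at 5 weeks 6 of 8 fibroblast markers rose (list median 0.68), as did 5 of 10 pericyte and smooth muscle markers (0.62) and 4 of 10 endothelial markers (0.17), and 0 fell. The fibroblast sum ran from 950 to 1828 CPM contralateral and from 1653 to 2564 CPM ipsilateral, and that of pericytes and smooth muscle from 230 to 342 and from 289 to 457 CPM. The collagen-binding proteoglycan gene Lum rose by 0.78 and Col1a1, a chain of collagen I, by 0.54, and the pericyte gene Rgs5 rose by 0.70. At 1 week 1 of 8 fibroblast markers fell in females and 0 rose (list median -0.32). In males the fibroblast list median was -0.34 at 24 h (0 of 8 rose and 2 fell), 0.39 at 1 week (1 rose and 0 fell) and -0.01 at 5 weeks (0 rose and 0 fell), beside the Agtr1a values of 0.03, 0.05 and -0.23. Over the 62 libraries, with group means removed, the median r of Agtr1a was 0.58 with the fibroblast markers and 0.45 with the pericyte ones. The genes closest to it were the transcriptional regulator Mn1 (0.69), the collagen-binding Aebp1 (0.66) and the growth factor gene Clec11a (0.66). The part of these cells in the Agtr1a difference was not tested.

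Agtr1b, the second type 1 receptor gene, was not called in any of the 5 comparisons. It lay at 0.547 to 0.872 CPM as group means, and its log2 fold changes were 0.00, -0.24 and -0.65 in males at 24 h, 1 week and 5 weeks and -0.45 and -0.09 in females. The male 5 week value had a 95% interval of -1.25 to -0.06 (adjusted p = 0.0842), and without contralateral replicate 2 an adjusted p of 0.0439. Agtr1a and Agtr1b are close copies, and reads that fit both can be split or lost in counting. Fractional counts were present in 3 of 62 libraries for each. Their values are therefore uncertain, and the r between them after group means were removed was -0.10.

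Agtr2, the type 2 receptor, was called between weeks and in none of the 5 comparisons of sides. Group means were 0.767 CPM contralateral and 0.631 CPM ipsilateral in males at 24 h, 0.756 and 0.757 CPM in males at 1 week, and 0.749 and 0.506 CPM in females at 1 week. At 5 weeks the contralateral male libraries held 0, 3, 1, 5 and 15 counts and the ipsilateral ones 3, 2, 1, 0 and 10 counts, and females held 1 to 8 and 1 to 11 counts. A count of 0 allows up to 3 counts. The 5 week libraries were mostly lower than those of 1 week on both sides, with some overlap. From 1 to 5 weeks Agtr2 fell in contralateral female ganglia (log2 difference -1.87, SE 0.498, adjusted p = 0.0108) and in ipsilateral male ganglia (-2.41, SE 0.676, adjusted p = 0.0181). The latter lost its call without ipsilateral 5 week replicate 2 (0.0507) or 3 (0.0524). The contralateral male value was -1.70 (adjusted p = 0.0738, 0.0434 with DESeq2, 0.0362 without contralateral 1 week replicate 6 and, at -2.76, 0.0191 without contralateral 5 week replicate 5) and the ipsilateral female value -0.83 (adjusted p = 0.261). Fibroblast markers fell over the same time in 6 of 8 cases in contralateral females (list median -1.10). In ipsilateral males 4 of 8 fell (-0.66). Contralateral females also had 6 of 8 Schwann cell markers (-0.64) and 6 of 10 pericyte and smooth muscle markers (-0.55) lower. Ipsilateral males had 1 of 8 Schwann cell markers lower and 1 of 10 pericyte and smooth muscle markers higher. The median r of Agtr2 was 0.35 with pericyte and smooth muscle, 0.20 with fibroblast and -0.16 with Schwann cell markers. The part of these cells in the Agtr2 difference was not tested.

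Side differences of Agtr2 were between -0.71 and 0.48 with wide intervals, the narrowest of the 5 being -1.39 to 0.25 in females at 1 week, and adjusted p-values from 0.262 to 0.997. With the contralateral group of the opposite week they changed sign in females, to 1.31 at 1 week (adjusted p = 0.0374) and -1.40 at 5 weeks (adjusted p = 0.0167). In males the same references gave 1.70 at 1 week (adjusted p = 0.0277, 0.00 with its own week) and -2.41 at 5 weeks (adjusted p = 0.00549, -0.71 with its own week). Without contralateral replicate 5 the male 5 week value was 0.36 (adjusted p = 0.834). In ipsilateral males of 1 week, replicate 1 held 1.79 CPM and the others 0.529 to 0.637 CPM, and the same library was the highest for Agtr1a (7.76 CPM). Of all members, Agtr1a and Agtr2 had the highest r with each other (0.43). The genes closest to Agtr2 were Sfrp2, a secreted Wnt antagonist (0.64), C1qtnf3 (0.63) and Fhl1 (0.63). In the contralateral comparison of weeks 1 of 7 members was called in males (Lnpep) and 2 of 7 in females (Agtr2 and Lnpep), Agt left aside, where 13.5% and 10.7% of all genes were. In the ipsilateral one 1 of 7 was called in males (Agtr2) and 2 of 7 in females (Lnpep and Atp6ap2), where 14.4% and 17.3% were.

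Mas1, the receptor for angiotensin-(1-7), was called in females at 1 week. Contralateral libraries held 6 to 13 counts (0.258 to 0.555 CPM, median 0.436) and ipsilateral ones 1 to 8 counts (0.0437 to 0.379 CPM, median 0.215). The groups overlapped, and Mas1 fell, with a log2 fold change of -1.10 (SE 0.354, adjusted p = 0.00999, lower in 7 of 7 pairs). No ipsilateral library reached the filter's minimum count of 10, so Mas1 passed the filter through other groups. It passed in 12 of the 14 fits that leave out a library of this comparison, and kept its call in these. A fit with the ribosomal RNA share as covariate gave -1.94 (adjusted p = 0.0169), and against the contralateral libraries of 5 weeks -0.79 (adjusted p = 0.0874). Elsewhere the values were below 0 and did not pass the test: -0.81 in males at 24 h (adjusted p = 0.166), -0.45 and -0.44 in males at 1 and 5 weeks, and -0.16 in females at 5 weeks (0.18 without contralateral replicate 3). Against contralateral libraries of the opposite week males had 0.12 at 1 week (adjusted p = 0.804) and -1.01 at 5 weeks (adjusted p = 0.0178). The female difference between weeks was 0.94 (95% interval -0.10 to 1.99, adjusted p = 0.255).

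Related receptors and signalling partners changed in both directions. Of 13 listed genes 12 were tested, and the inducible bradykinin receptor gene Bdkrb1 was not. At 24 h 2 rose and 2 fell. At 1 week 4 rose and 5 fell in males and 4 rose and 4 fell in females. At 5 weeks 3 rose and 5 fell in males and 6 rose and 3 fell in females. Among all genes, 14.1% were called at 24 h, 47% and 45.7% at 1 week and 34.7% and 42% at 5 weeks (males first). Bdkrb2, the receptor for bradykinin, the peptide that Ace also degrades, rose in all 5 comparisons, by 0.88 at 24 h, 0.86 and 0.88 at 1 week and 0.66 and 0.74 at 5 weeks. Arrb1, beta-arrestin 1, which binds activated receptors, rose by 0.27 at 24 h, 0.71 and 0.82 at 1 week and 0.65 and 0.76 at 5 weeks. Mrgprd, a nociceptor receptor that also binds the Mas1-related peptide alamandine, changed by -0.86 and -1.02 at 1 week and by -1.07 and -0.69 at 5 weeks, and had -0.69 at 24 h (adjusted p = 0.0518). The list median lay between -0.11 and 0.06, beside -0.01 to 0.01 for all genes.

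Lnpep, the angiotensin IV-binding aminopeptidase, had small and closely measured side differences. In males at 1 week it ran from 146.8 to 164 CPM contralateral (median 153) and from 121 to 132 CPM ipsilateral (median 129). Its log2 fold change was -0.29 (SE 0.0296, adjusted p = 1.70e-08), and the groups did not overlap. Female libraries at 1 week ran from 168 to 197 CPM (median 181) and from 135 to 148 CPM (median 145), with a log2 fold change of -0.35 (SE 0.0324, adjusted p = 1.93e-11). In males at 5 weeks the contralateral libraries held 136 to 149 CPM and the ipsilateral ones 114 to 123 CPM, with -0.26 (SE 0.0353, adjusted p = 2.65e-06, lower in 5 of 5 pairs). Female Lnpep at 5 weeks fell with -0.10 (SE 0.035, adjusted p = 0.0206, lower in 6 of 6 pairs), with overlapping groups. That call was lost without contralateral replicate 2 (adjusted p = 0.0566) or 5 (0.0576). At 24 h the value was -0.07 (95% interval -0.15 to -0.0043, adjusted p = 0.158).

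The Lnpep difference changed with time. It was larger in males at 1 week than at 24 h by -0.21 (SE 0.0455, adjusted p = 3.23e-04, across both tables). In females it was smaller at 5 weeks than at 1 week by 0.25 (SE 0.0476, adjusted p = 2.45e-04), while in males the difference between these weeks was 0.03 (95% interval -0.07 to 0.12, adjusted p = 0.908). In that male contrast 0 of 7 members were called, Agt left aside, and 0.211% of all genes, and no member of the 7 had an unadjusted p under 0.05. Contralateral Lnpep was lower at 5 weeks than at 1 week in males (-0.12, adjusted p = 0.0176, lost without contralateral 5 week replicate 1 or 3) and in females (-0.12, adjusted p = 0.0137). Ipsilateral Lnpep rose over the same time in females (0.13, adjusted p = 0.0071) and had -0.09 in males (adjusted p = 0.071). A fit with that covariate of ribosomal RNA gave -0.37 in females at 1 week (adjusted p = 1.75e-05). Sensory neuron markers moved in the same comparisons: 2 of 10 rose and 7 fell in males at 1 week, and 3 rose and 6 fell in females. Their summed level was 9761 to 10709 CPM contralateral and 10706 to 12762 CPM ipsilateral in males and 9848 to 11300 and 11671 to 13212 CPM in females, and their part in the Lnpep difference was not tested. The closest genes with a name were the protocadherin gene Pcdh7 and the Ras regulator Rasa1 (r = 0.67 each).

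**Figure D5:**
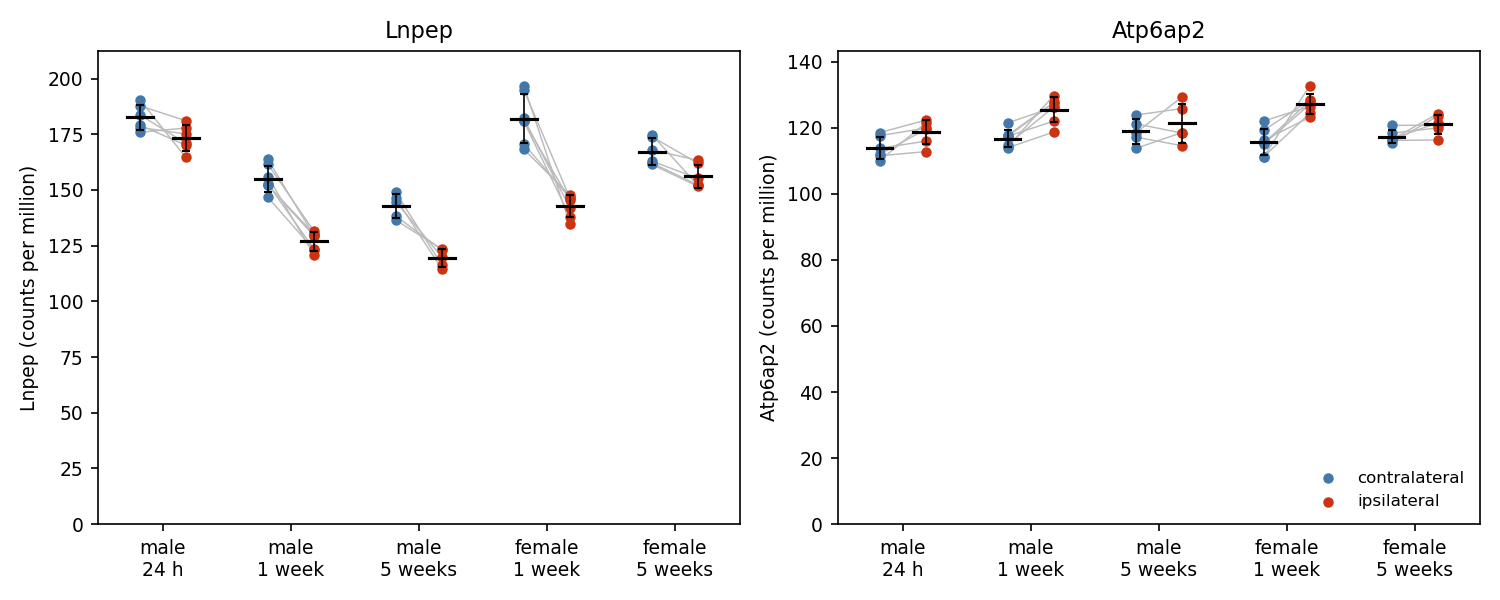
Lnpep and Atp6ap2 levels (CPM, y axes from 0) in each library, contralateral in blue and ipsilateral in red, with grey lines joining libraries of the same replicate number and black marks for the mean and SD. Lnpep is lower on the ipsilateral side in each pair at 1 and 5 weeks, and Atp6ap2 stays between 110 and 133 CPM in every library.

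Atp6ap2, the (pro)renin receptor, varied least. In males at 1 week it ran from 114 to 121 CPM contralateral (median 117) and from 119 to 130 CPM ipsilateral (median 126), and rose by 0.10 (SE 0.0285, adjusted p = 0.00396, higher in 7 of 7 pairs). Female libraries ran from 111 to 122 CPM (median 115) and from 123 to 133 CPM (median 127), with no overlap, and rose by 0.14 (SE 0.0246, adjusted p = 1.74e-05). The other values were 0.06 at 24 h (95% interval 0.01 to 0.11, adjusted p = 0.142), 0.03 in males at 5 weeks (-0.04 to 0.10) and 0.05 in females at 5 weeks (-0.01 to 0.10), the last being 0.06 with an adjusted p of 0.0443 against contralateral libraries of 1 week. The ipsilateral female level changed by -0.07 from 1 to 5 weeks (adjusted p = 0.0495), a call lost with RLE scaling (0.0862), without a filter (0.179) and in most fits that leave out a library. The chaperonin gene Cct8, Nrip3 and the sodium channel subunit gene Scn3b were closest to it (r = 0.61 each).

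Subunit genes of the proton pump that Atp6ap2 belongs to were called in both directions at 1 and 5 weeks. Of 16 pump subunit genes 4 rose and 0 fell at 24 h. At 1 week 3 rose and 6 fell in males and 5 rose and 3 fell in females. At 5 weeks 2 rose and 5 fell in males and 2 rose and 7 fell in females. Beside these, 14.1% of all genes were called at 24 h, 47% and 45.7% at 1 week and 34.7% and 42% at 5 weeks. The subunit genes named here are those with the largest mean change in the list. Atp6v1a, a catalytic subunit of the ATP-splitting part, changed by -0.37 and -0.31 at 1 week and by -0.33 and -0.28 at 5 weeks. Atp6v1b2 changed by -0.31, -0.24, -0.34 and -0.32 and Atp6v1c1 by -0.31, -0.25, -0.33 and -0.34, in the same order. Atp6v0c, which forms the membrane ring of the pump, rose by 0.15 at 24 h, 0.31 and 0.37 at 1 week and 0.27 and 0.23 at 5 weeks. The list median lay between -0.05 and 0.06, beside -0.01 to 0.01 for all genes.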

How the data were processed

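The submitters deposited estimated counts per gene in 2 tables. Reads were processed with featureCounts 1.6.4, STAR 2.7.2b, cutadapt 2.5 and bcl2fastq 2.20.0.422 on mRatBN7.2, per the submitters' processing notes. Poly-A libraries were stranded and single-end, per the labels' protocols. The plan named the unit as counts. The deposited values were partly fractional (74.1% and 78.1% of nonzero values were whole), so they were rounded (largest shift of a library total 0.0014%).

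The files were analysed in Python 3.11.15 (matplotlib 3.10.9, pandas 2.3.3) and R 4.3.3 (DESeq2 1.42.0, limma 3.58.1, edgeR 4.0.16). Each table was scaled with TMM, filtered with filterByExpr at a minimum count of 10 (18980 and 18125 genes tested) and fitted with edgeR's robust quasi-likelihood model with 1 mean per group. Contrasts across tables used a joint fit (19209 genes). The SE was taken from the log2 fold change and the F statistic. Levels are CPM on TMM-scaled library sizes. The method was tested on simulated data of 2 groups with few changed genes. That setting differs from these data, where many genes were called in fits of more groups, and nothing is drawn from it here. Alternatives were RLE scaling, other filters, DESeq2, limma-voom, the 2 groups alone, a replicate block, a ribosomal RNA covariate, contralateral libraries of the opposite week and leaving out each library.

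The labels give both sides of an animal 1 code in the second table and none in the first. There, libraries with the same number correlated after group means were removed (lowest 0.277 and 0.219, median 0.433 and 0.363 for males at 1 and 5 weeks), so numbers were taken to pair the sides. Medians in the second table were 0.215, 0.293 and 0.340 (male 24 h, female 1 and 5 weeks). The pairing entered the counts of pairs and the fits with a replicate block. All other p-values treat the sides as unpaired. For males at 1 and 5 weeks p-values measure the spread between these samples, which may be technical, since no label names their animals.

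Members and lists were chosen with earlier results of these data known. Beside the 8 members, the text names up to 4 genes per pathway list (angiotensin peptidases, receptor partners and related receptors, proton pump subunits, Agt regulators) with the largest mean change among those called in at least 1 comparison, the first 3 markers of cell lists, and the 5 (Agt) or 3 genes most correlated with each member (log2 CPM, prior count 2). Some genes this rule gives are not reported here, and the counts of a list cover all of its tested genes. Cell lists whose side differences are not described above follow, as higher and lower of tested markers in males and then females at 1 week. They are Schwann cell (2 and 4 of 8, 0 and 4 of 8), mast cell (3 and 0 of 6, 1 and 0 of 5), adipocyte (1 and 1 of 3, 1 and 3 of 4) and erythrocyte (7 and 0 of 7, 0 and 0 of 7). Of 10 pericyte and smooth muscle markers 0 rose and 2 fell in females at 1 week.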

Additional observations from a re-analysis of the deposited data

Results flagged for a closer look

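In 80 groups of libraries looked at (8 genes in 10 groups), 6 had 1 library far from the others, where chance gives about 1 in 20. Agt was 7.42 CPM in ipsilateral male 24 h replicate 4, with the others at 3.06 to 4.53 CPM. Agtr1a was 5.55 CPM in ipsilateral female 1 week replicate 5 (others 3.33 to 4.11 CPM) and 7.76 CPM in ipsilateral male 1 week replicate 1 (others 4.71 to 5.66 CPM). The latter library also held 1.79 CPM of Agtr2 (others 0.529 to 0.637 CPM). Agtr1b was 1.35 CPM in contralateral female 1 week replicate 4 (others 0.521 to 0.871 CPM), and Mas1 was 0.681 CPM in contralateral female 5 week replicate 3 (others 0.197 to 0.354 CPM).

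The side difference itself differed between groups in 4 cases. In males, 1 week minus 24 h was -1.05 for Agt and -0.21 for Lnpep, and these times lie in different count tables. In females, 5 weeks minus 1 week was 0.64 for Agtr1a and 0.25 for Lnpep.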

How the results depend on the processing

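Of 698 values of single members under another setting 667 kept their direction and their side of the threshold and 9 more turned in sign with no call in either fit (Agt at 5 weeks, which has no test, was judged by its spread). With a library left out 1800 of 1898 kept both and 61 turned in sign in this way. Fits in which a member did not pass the filter or had no adjusted p are not among these values. Those left out concern the scarce Agtr1b, Agtr2 and Mas1. The count of genes called between sides was 1604 in males at 24 h with the 2 groups alone (2560 with the settings of the report) and 4060 in females at 1 week with the ribosomal RNA share as a covariate (8276). The male difference between weeks gave 139 genes with DESeq2 and 497 with the replicate block against 40, and 26 to 98 with a library left out. With the replicate block the female minus male difference gave 517 genes at 1 week (214 without) and 697 at 5 weeks (405), and 1 member at 5 weeks (0 without). That block changed 1 other call of a member, Ace in the male 1 week minus 24 h difference. With contralateral libraries of the other week 4 members were called in males at 5 weeks (1 with the settings of the report), and Agtr2 reversed to 1.31 and -1.40 in females at 1 and 5 weeks. Between weeks, members called were 2 with DESeq2 in contralateral males (1 with the settings of the report), 1 with the stricter filter in contralateral females (2), 0 with the stricter filter in ipsilateral males (1), and 1 with RLE scaling, no filter, the stricter filter or DESeq2 in ipsilateral females (2). With 1 library left out, members called ran from 1 to 2 in males at 5 weeks, 0 to 1 for the female minus male difference at 5 weeks, and between weeks 0 to 2 in contralateral males, 0 to 1 in ipsilateral males and 1 to 2 in ipsilateral females. Except where fewer genes passed the filter, the cause was not tested. Agtr1b, Agtr2 and Mas1 have few counts, which limits what could be detected.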

Other observations

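Members varied largely apart from each other within groups. With group means removed, the r of log2 CPM over the 62 libraries was lowest between Lnpep and Mas1 (-0.48) and between Atp6ap2 and Mas1 (-0.29), and was 0.21 between Agt and Agtr1a, 0.10 between Agt and Agtr2 and -0.05 between Agt and Ace. The libraries share depth and composition, and these values are given as a description.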
